A study of Homo sapiens with 12 samples.

Results

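Long noncoding RNAs (lncRNAs) that could be detected in SW13 cells were followed across the 4 groups of the study. A gene was taken as a member when its symbol followed a naming pattern of lncRNAs (LINC with a number, -AS, -OT, -DT, SNHG with a number, or MIR with HG) or was MALAT1, NEAT1 or LNCAROD, when at least 1 probe set of the array was annotated to it alone, and when its mean signal reached 50 in at least 1 group. The members were thus selected on their measured signals in these arrays. The probe set with the highest mean log2 signal over the 12 arrays stood for the gene. Of 1875 genes that fit the name, 320 met the signal threshold, among 10735 genes of any kind that met it and 19775 genes with a probe set of their own. They were 166 antisense genes (-AS), 83 intergenic genes (LINC), 52 divergent transcripts (-DT), 8 microRNA hosts (MIR with HG), 6 small nucleolar RNA hosts (SNHG), 3 overlapping transcripts (-OT), and MALAT1 and LNCAROD. NEAT1 was not a member, because all 9 of its probe sets are annotated to MIR612 as well.

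SW13 is a human adrenal cortical carcinoma line that lacks the BRG1 protein, the ATPase of the SWI/SNF chromatin remodelling complexes. The lines compared were SW13+pREP7+BRG1 (SW13+BRG1), a stable line with BRG1 isoform C, and SW13+pREP7 (SW13+vector), a stable line with the empty vector. Both were irradiated with UV at 10 J/m2 or mock treated, and RNA was collected 6 h later, with 3 arrays in each of the 4 groups. The study describes the arrays as independent biological replicates of 1 line of each kind, so a p measures the spread within these lines, and an effect of BRG1 cannot be told apart from other differences between them.

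Long noncoding RNAs are transcripts that carry no long open reading frame. Many are transcribed antisense to, or divergently from, the start of a protein-coding gene, and many are short lived and kept in the nucleus. Some serve mainly as precursors: microRNA host genes carry microRNA hairpins in their transcript, and SNHG genes carry small nucleolar RNAs in their introns. UV light makes bulky lesions in DNA that stall RNA polymerase II, so that long transcription units are interrupted more often than short ones.

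Signals are the intensities per probe set of Affymetrix U133 Plus 2.0 arrays, scaled by the authors to a mean of 125 on each array. A gene was called higher or lower when the adjusted p of limma over all tested probe sets was under 0.05 and the fold change was over 2, with fold changes given as differences of mean log2 signals ± their standard error. Array medians were 21.1 to 25.3, and log2 signals of arrays within a group correlated at 0.879 to 0.917. SMARCA4, which encodes BRG1, did not give a clear check of the labels: of its 7 tested probe sets 1 was called lower in mock-treated SW13+BRG1 cells and 1 other was called higher in UV-treated SW13+BRG1 cells, and where its probes lie relative to the introduced BRG1 was not checked. The study itself reports BRG1 protein by Western blot, with no effect of UV on it in SW13+BRG1 cells. Adrenal cortex markers were dim in every group, with summed signals of 7 genes between 49.8 and 150.3, and only 2 of the 8 listed markers passed the filter.

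The sequences that the results below turn on are of 2 kinds. The first are mature microRNAs of 4 host genes: MIR100HG and MIR99AHG, shown because they share seeds, and MIR31HG and MIR1915HG, shown because they differed clearly between the lines. Those of MIR570HG and MIR924HG, which were called as well, are not printed. They are the RefSeq sequences (GRCh38.p14), 5′ to 3′, with the seed (bases 2 to 8) in capitals. The arrays measured the host transcripts, not the mature microRNAs.
MIR31HG, hsa-miR-31-5p at chr9:21512158-21512178, minus strand: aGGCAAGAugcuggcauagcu
MIR100HG, hsa-miR-100-5p at chr11:122152275-122152296, minus strand: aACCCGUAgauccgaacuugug
MIR99AHG, hsa-miR-99a-5p at chr21:16539101-16539122, plus strand: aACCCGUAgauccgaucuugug
MIR100HG, hsa-let-7a-5p at chr11:122146568-122146589, minus strand: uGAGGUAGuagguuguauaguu
MIR99AHG, hsa-let-7c-5p at chr21:16539838-16539859, plus strand: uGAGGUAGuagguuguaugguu
MIR100HG, hsa-miR-125b-5p at chr11:122099809-122099830, minus strand: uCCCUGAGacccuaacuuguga
MIR1915HG, hsa-miR-1915-3p at chr10:21496576-21496595, minus strand: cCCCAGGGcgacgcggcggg
The seed ACCCGUA was shared by miR-100 of MIR100HG and miR-99a of MIR99AHG, and the seed GAGGUAG by let-7a of MIR100HG and let-7c of MIR99AHG. The miR-125b of MIR99AHG, at chr21:16590253-16590274, has the same mature sequence as that of MIR100HG. MIR31HG and MIR1915HG share none of these seeds.

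The second kind are start regions of members called higher after UV in both lines. The RefSeq table of 300-base windows (250 bases before the start site to 50 after it, GRCh38.p14) held 7 of these 8 genes, and not TOLLIP-DT. The 4 printed here cover the range of GC content among them, from the lowest to the highest, and have every CG dinucleotide in capitals.
LINC00662, chr19:27793891-27794190, minus strand: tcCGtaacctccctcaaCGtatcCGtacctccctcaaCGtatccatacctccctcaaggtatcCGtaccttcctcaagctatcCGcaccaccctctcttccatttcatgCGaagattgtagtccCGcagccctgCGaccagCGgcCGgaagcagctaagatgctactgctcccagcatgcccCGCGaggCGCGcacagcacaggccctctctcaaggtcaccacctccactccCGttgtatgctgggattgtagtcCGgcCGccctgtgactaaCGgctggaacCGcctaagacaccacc
LINC01003, chr7:152463874-152464173, plus strand: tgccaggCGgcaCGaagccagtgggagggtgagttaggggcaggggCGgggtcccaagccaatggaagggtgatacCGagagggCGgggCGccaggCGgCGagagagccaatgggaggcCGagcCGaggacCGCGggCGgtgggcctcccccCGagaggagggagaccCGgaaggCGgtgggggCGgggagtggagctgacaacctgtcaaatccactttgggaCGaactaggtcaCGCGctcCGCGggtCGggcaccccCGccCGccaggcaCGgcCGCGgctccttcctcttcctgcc
PAXIP1-DT, chr7:155003183-155003482, plus strand: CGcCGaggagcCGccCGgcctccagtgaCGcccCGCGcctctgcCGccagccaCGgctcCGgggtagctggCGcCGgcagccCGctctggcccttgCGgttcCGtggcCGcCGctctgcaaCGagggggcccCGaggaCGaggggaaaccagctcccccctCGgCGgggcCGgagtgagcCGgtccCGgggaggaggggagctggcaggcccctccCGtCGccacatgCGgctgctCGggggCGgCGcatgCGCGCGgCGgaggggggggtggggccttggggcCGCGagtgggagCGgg
ST20-AS1, chr15:79922521-79922820, plus strand: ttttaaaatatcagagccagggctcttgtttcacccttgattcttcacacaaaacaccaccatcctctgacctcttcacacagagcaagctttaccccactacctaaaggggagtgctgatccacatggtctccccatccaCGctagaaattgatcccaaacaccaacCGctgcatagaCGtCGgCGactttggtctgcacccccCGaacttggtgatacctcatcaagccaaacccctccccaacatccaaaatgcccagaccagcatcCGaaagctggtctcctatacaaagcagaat
These windows differed widely in base composition: the PAXIP1-DT window had 79.7% GC and 38 CG dinucleotides, and the ST20-AS1 window had 50% GC and 7. Over the 7 windows the median GC content was 70%, against 64.3% over 318 windows of 248 members and 58.7% over all 35116 windows of the table. The letters GGGCGG, searched on both strands, stood in 6 of the 7 windows (85.7%), in 57.2% of the members' windows and in 45% of all windows. CCAAT stood in 2 of the 7 (28.6%), in 34.9% of the members' windows and in 34.6% of all. TATAAA was in none of the 7, in 8.18% of the members' windows and in 11.5% of all. TGANTCA and TGACGTCA were also in none of the 7. TGANTCA stood in 6.6% of the members' windows and in 7.71% of all, and TGACGTCA in 2.83% and 1.85%. At shares this low, none in 7 windows cannot be read as a lack. None of these motifs contains another, and a match is a description of letters only.

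The members were dim as a class. The median of the highest group mean was 108.2, against 310.1 over all genes at the threshold, and 149 members stayed under 100 while 7 exceeded 1000. Of the 320, 160 reached 50 in all 4 groups, 24 in 3, 69 in 2 and 67 in only 1. The highest of the 4 group means was that of UV-treated cells for 90 members in SW13+BRG1 and 129 in SW13+vector, and that of mock-treated cells for 54 in SW13+BRG1 and 47 in SW13+vector. Just inside the threshold were PDCD4-AS1 at 50.2, MYLK-AS1 at 50.6 and LINC01718 at 50.8, and just outside it PPP3CB-AS1 and PEG3-AS1, both at 49.9, and LYPLAL1-AS1 at 49.7. Since the threshold uses the same signals as the comparisons, a member that reached it only in its higher group had to differ, and the counts below describe the members and are no separate evidence.

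MALAT1, an abundant nuclear RNA found at nuclear speckles, was the brightest member. Its signals were 5585, 7577 and 5054 in UV-treated and 8274, 8062 and 3220.1 in mock-treated SW13+BRG1 cells, and 6735, 6632 and 3127 in UV-treated and 5527, 5305 and 2628 in mock-treated SW13+vector cells. The third array was the lowest in every group, the groups overlapped, and MALAT1 was called in no comparison (adjusted p of limma 0.454 or more). SNHG32, a small nucleolar RNA host, had 2745, 2634 and 2858 in UV-treated and 2148, 2044 and 1860.2 in mock-treated SW13+BRG1 cells, and 1465, 1482 and 1485 in UV-treated and 1336, 1217 and 1107 in mock-treated SW13+vector cells. These 4 groups did not overlap: every SW13+BRG1 array lay above every SW13+vector array, and within each line the UV arrays lay above the mock arrays. Between the lines the log2 differences were 0.73 ± 0.10 in mock-treated (adjusted p = 0.000122, limma) and 0.89 ± 0.10 in UV-treated cells (adjusted p = 1.98e-05), below the fold needed for a call. EPB41L4A-AS1, an antisense gene that hosts a small nucleolar RNA, had the same order, with 1471, 1535 and 1448 in UV-treated and 1074, 1105 and 875 in mock-treated SW13+BRG1 cells, and 778, 802 and 693 in UV-treated and 604, 542 and 524 in mock-treated SW13+vector cells.

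Other bright members of their classes changed little. SNHG19 averaged 1282 ± 165 and 1033 ± 206 in UV- and mock-treated SW13+BRG1 cells and 1577 ± 77.7 and 1379 ± 387 in UV- and mock-treated SW13+vector cells (SD, n = 3 each). FGD5-AS1 averaged 636 ± 38.8 and 590.1 ± 54.3 in UV- and mock-treated SW13+BRG1 cells, and 761 ± 32.1 and 641 ± 105 in UV- and mock-treated SW13+vector cells. RAB30-DT, the divergent transcript of a small GTPase gene, was lower in SW13+BRG1 cells without reaching the fold for a call: it averaged 461 ± 10.3 and 327 ± 20.1 in UV- and mock-treated SW13+BRG1 cells, and 767 ± 55.4 and 554 ± 58.2 in UV- and mock-treated SW13+vector cells (UV log2 difference between the lines -0.73 ± 0.12, adjusted p = 0.000577, limma). The brightest overlapping transcript after SOX2-OT, SLC9A3-OT1, averaged 85 to 118 over the groups, the miRNA host MIR550A3HG 125 to 145, and neither was called in any comparison.

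After UV more members were called higher than lower in each line, whereas all genes were mostly called lower. In SW13+BRG1 cells 13 members were called higher and 3 lower, where 0.512% of all 10735 genes at the threshold were called higher and 7.88% lower. In SW13+vector cells 14 were called higher and 3 lower, with 0.559% of all genes called higher and 4.99% lower. Over all members the median log2 UV effect was 0.25 in SW13+BRG1 and 0.23 in SW13+vector cells, against 0.01 over all genes at the threshold in either line. The effect was above 0 in 206 members (64.4%) of SW13+BRG1 and 218 (68.1%) of SW13+vector cells. The signals of the 3 UV arrays lay wholly above the 3 mock arrays in 90 members and wholly below in 36 in SW13+BRG1 cells, and wholly above in 80 and wholly below in 30 in SW13+vector cells. This was not counted over all genes, so these counts have no share to be read against. A difference between the UV effects of the lines was called in 0 members by limma, with 0.0186% of all genes called positive and 0.0652% negative. Its unadjusted p was under 0.05 in 11 of 320 members and in 628 of all 10735 genes (smallest adjusted p of a member 0.592, limma).

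**Figure D1:**
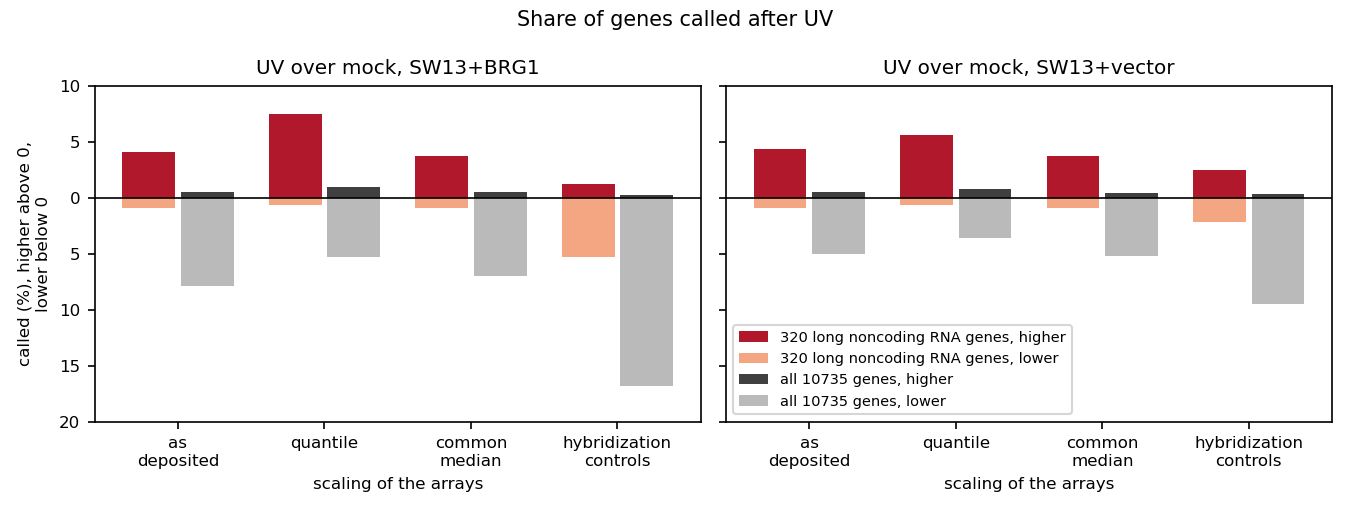
Percent of genes called higher (positive bars) and lower (negative bars) after UV over mock treatment, for the 320 long noncoding RNA genes and for all 10735 genes at the threshold, in SW13+BRG1 and SW13+vector cells under 4 scalings of the arrays. With the authors' scaling 4.06% of the members were called higher in SW13+BRG1 cells, against 0.512% of all genes. With scaling to hybridization controls 4 members were called higher and 17 lower there, against 0.214% and 16.8% of all genes.

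The balance of directions depended on how the arrays were scaled. Scaled to the signals of 18 hybridization control probe sets, the median UV effect over all genes at the threshold was -0.38 in SW13+BRG1 and -0.26 in SW13+vector cells, and that of the members was -0.15 in SW13+BRG1 and -0.03 in SW13+vector cells. On that scale 4 members were called higher and 17 lower in SW13+BRG1 cells, and 8 higher and 7 lower in SW13+vector cells. Of all genes 0.214% were called higher and 16.8% lower in SW13+BRG1, and 0.317% and 9.5% in SW13+vector cells. The members' median lay above that of all genes by the same amount on both scales by construction, since 1 factor per array shifts all genes alike, and the changes below are relative to the other genes of the array. Of the named calls, those of DOCK9-DT, ENO1-AS1, PAPOLA-DT and ST7-AS1 in SW13+BRG1 and of SNHG24 in SW13+vector cells were lost on that scale. The test that the study's methods name, run per probe set with Benjamini-Hochberg adjustment, called 0 members after UV in either line, and with its unadjusted p and a fold over 2 it called 13 in SW13+BRG1 and 18 in SW13+vector cells. Calls of that test were not counted over all genes. As log2 of the signal plus 16 the UV effects of DOCK9-DT, ENO1-AS1 and ST7-AS1 in SW13+BRG1 and LINC02762 in SW13+vector cells (0.91, 0.92, 0.98 and 0.98), and those of MIR570HG in SW13+BRG1 and CKMT2-AS1 in SW13+vector cells (-0.87 and -0.84), were under the fold for a call. After quantile normalization 24 members were called higher and 2 lower in SW13+BRG1 cells, and 18 higher and 2 lower in SW13+vector cells. Of all genes 0.997% were then called higher and 5.31% lower in SW13+BRG1, and 0.764% and 3.61% in SW13+vector cells. Taken by a mean of 50 or more over all 12 arrays, a rule added after the data were seen that does not favour either group, the 229 members left had 9 higher and 3 lower in SW13+BRG1 cells (3.93% and 1.31%, with 0.439% and 8.25% of 9806 genes) and 11 higher and 2 lower in SW13+vector cells (4.8% and 0.873%, with 0.439% and 5.18% of those genes).

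The 8 members called higher after UV in both lines were HNRNPD-DT, LINC00662, LINC01003, LINC01089, PAN3-AS1, PAXIP1-DT, ST20-AS1 and TOLLIP-DT. They are 61.5% of the 13 called in SW13+BRG1 and 57.1% of the 14 called in SW13+vector cells, and such overlap was not counted over all genes. No member was called lower in both lines, where each line had 3.

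**Figure D2:**
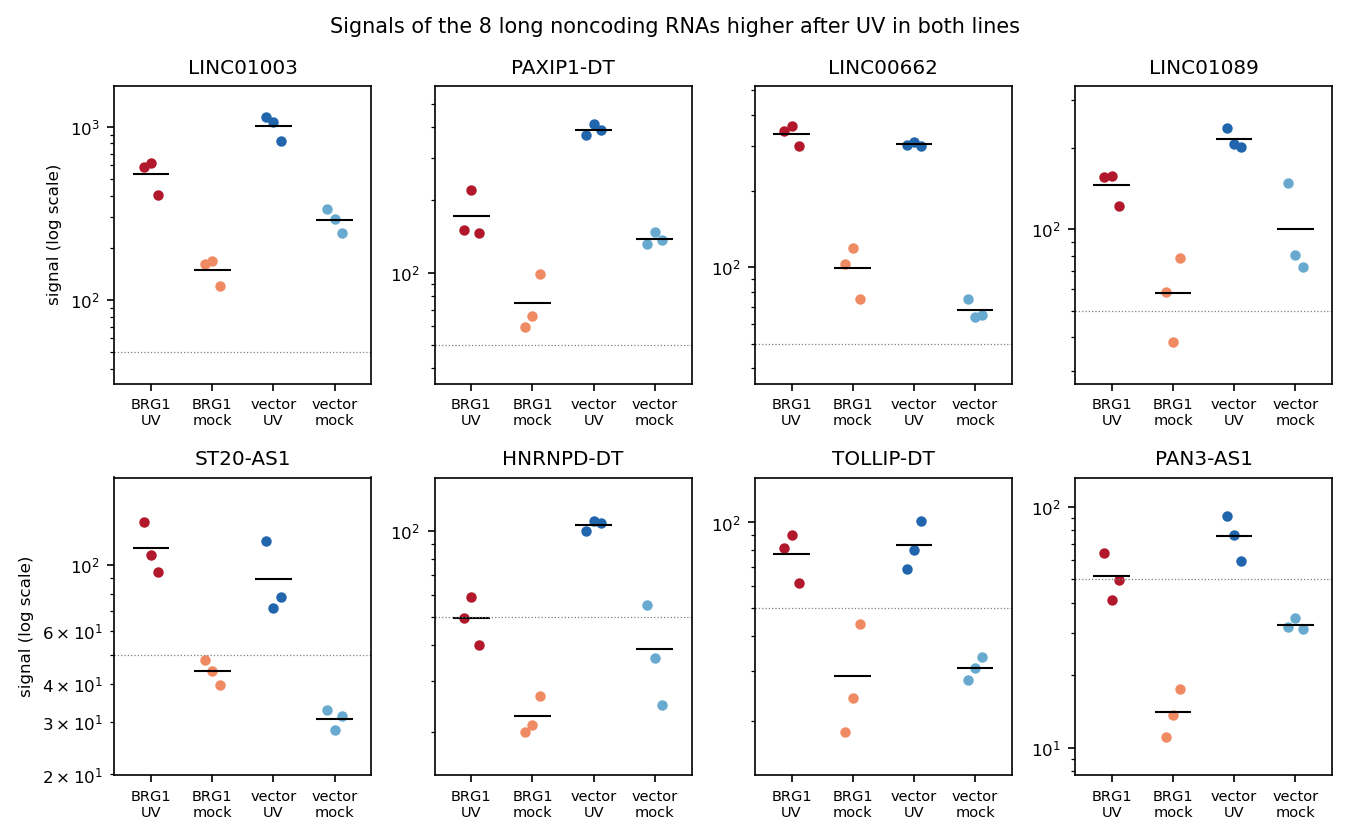
Signal on each array (log scale, arbitrary units as scaled by the authors) of the 8 members called higher after UV in both lines, for UV- and mock-treated SW13+BRG1 cells and UV- and mock-treated SW13+vector cells, with black bars at the group means and a dotted line at the threshold of 50. In each panel and line the UV arrays lie above the mock arrays, as in SW13+BRG1 cells for LINC00662 at a mean of 336 against 99.1.

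Among intergenic members, LINC00662 had signals of 346, 362 and 300.0 in UV-treated and 103, 119 and 74.7 in mock-treated SW13+BRG1 cells. In SW13+vector cells they were 303, 312 and 302 after UV and 75.3, 63.9 and 65 after mock treatment. UV and mock arrays did not overlap in either line, and the UV levels of the lines were close. The log2 changes were 1.78 ± 0.19 in SW13+BRG1 (adjusted p = 8.65e-05, limma) and 2.17 ± 0.19 in SW13+vector cells (adjusted p = 4.7e-05). This rise belonged to the brightest of 5 tested probe sets: the other 4 had log2 UV effects of -0.71 to 0.32 in SW13+BRG1 and -1.39 to -0.08 in SW13+vector cells, and none of them was called higher. Its window above holds 1 GGGCGG and 20 CG dinucleotides.

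LINC01003 had 589, 616 and 405 in UV-treated and 162, 167 and 120.3 in mock-treated SW13+BRG1 cells. In SW13+vector cells it had 1131, 1068 and 832 after UV and 336, 291 and 243 after mock treatment. Both UV groups lay above both mock groups, and SW13+BRG1 cells were lower than SW13+vector cells with either treatment. The log2 UV effect was 1.83 ± 0.20 in SW13+BRG1 (adjusted p = 0.000113, limma) and 1.80 ± 0.20 in SW13+vector cells (adjusted p = 0.000256), and the log2 difference between the lines, -0.96 in mock-treated and -0.92 in UV-treated cells, was below the fold for a call. LINC01089, which lies outside the rule for named genes and is named after its values were seen, had 156, 157 and 122 in UV-treated and 58.8, 38.4 and 78.1 in mock-treated SW13+BRG1 cells. In SW13+vector cells LINC01089 had 237, 206 and 201 after UV and 148, 80.4 and 72.3 after mock treatment (log2 effects 1.36 ± 0.30 and 1.17 ± 0.30 in SW13+BRG1 and SW13+vector cells), with no overlap between UV and mock arrays in either line.

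Divergent transcripts start near the promoter of a coding gene and run away from it. PAXIP1-DT, beside the gene of an adaptor protein of the DNA damage response, had 149.7, 219.5 and 147 in UV-treated and 59.4, 66 and 98.4 in mock-treated SW13+BRG1 cells. In SW13+vector cells PAXIP1-DT had 374, 412 and 389.5 after UV and 131, 147 and 136 after mock treatment. UV arrays lay above mock arrays in each line, and the UV level was lower in SW13+BRG1 cells (log2 difference -1.21 ± 0.22, adjusted p = 0.00112, limma). The log2 UV effects of PAXIP1-DT were 1.21 ± 0.22 in SW13+BRG1 (adjusted p = 0.0025) and 1.50 ± 0.22 in SW13+vector cells (adjusted p = 0.00128).

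HNRNPD-DT, beside the gene of an RNA-binding protein of AU-rich elements, had 49.7, 59 and 40.1 in UV-treated and 20, 21.2 and 26.7 in mock-treated SW13+BRG1 cells. Its signals in SW13+vector cells were 99.8, 108 and 106 after UV and 55.1, 36.1 and 24.7 after mock treatment. UV and mock arrays did not overlap in either line, and in SW13+BRG1 cells only 1 UV array exceeded 50 (log2 effects 1.12 ± 0.33, adjusted p = 0.0354, in SW13+BRG1 and 1.52 ± 0.33, adjusted p = 0.0113, in SW13+vector cells by limma). TOLLIP-DT, beside the gene of an adaptor of Toll-like receptor signalling, had 81.2, 90.5 and 61.5 in UV-treated and 18.4, 24.3 and 44 in mock-treated SW13+BRG1 cells, and 68.4, 80.2 and 102 in UV-treated and 27.9, 30.9 and 33.5 in mock-treated SW13+vector cells. Its log2 UV effects were 1.51 ± 0.34 in SW13+BRG1 (adjusted p = 0.00983, limma, and 0.0505 without SW13+BRG1 mock array 1) and 1.42 ± 0.34 in SW13+vector cells (adjusted p = 0.0198).

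PAPOLA-DT, beside the gene of the canonical poly(A) polymerase, was called in SW13+BRG1 cells alone. It had 45.3, 40 and 78.8 in UV-treated and 7.54, 13.4 and 39.9 in mock-treated SW13+BRG1 cells, where the third array was the highest of each group. It had 90.8, 122 and 135 in UV-treated and 42.6, 35.7 and 54 in mock-treated SW13+vector cells. In SW13+BRG1 cells the lowest UV array was level with the highest mock array, and in SW13+vector cells the groups did not overlap. The log2 effects were 1.72 ± 0.51 (adjusted p = 0.0391, limma) in SW13+BRG1 and 1.40 ± 0.51 (adjusted p = 0.108) in SW13+vector cells. The call was lost on leaving out any of 9 of the 12 arrays, with adjusted p up to 0.163 without SW13+BRG1 mock array 1. DOCK9-DT, beside the gene of an activator of CDC42, had 43.9, 41.8 and 29 in UV-treated and 13.1, 13.9 and 11.2 in mock-treated SW13+BRG1 cells, and 62.4, 52.5 and 40.9 in UV-treated and 55.6, 30.2 and 25.9 in mock-treated SW13+vector cells, where the arrays overlapped. The DOCK9-DT log2 effects were 1.57 ± 0.39 (adjusted p = 0.0157, limma) in SW13+BRG1 and 0.54 ± 0.39 (adjusted p = 0.455) in SW13+vector cells, and the call was lost without SW13+BRG1 UV array 1 (adjusted p = 0.0571) or 2 (0.0536). LINC00513, the remaining member called higher in SW13+BRG1 cells, had 87, 82.1 and 89.2 in UV-treated and 38, 32.1 and 31.4 in mock-treated SW13+BRG1 cells (log2 effect 1.35 ± 0.28, adjusted p = 0.00564 by limma). That DOCK9-DT or LINC00513 was called in 1 line does not show a difference between the lines, which was not called for any member.

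Antisense members are transcribed from the strand opposite a coding gene. ST20-AS1 had 138, 108 and 94.3 in UV-treated and 48.3, 44.1 and 39.8 in mock-treated SW13+BRG1 cells, and 119.6, 71.8 and 77.9 in UV-treated and 32.7, 28 and 31.4 in mock-treated SW13+vector cells. No UV array of ST20-AS1 fell to the level of a mock array, with log2 effects of 1.35 ± 0.27 (adjusted p = 0.00449, limma) in SW13+BRG1 and 1.51 ± 0.27 (adjusted p = 0.00388) in SW13+vector cells. PAN3-AS1, opposite the gene of a subunit of a poly(A) nuclease, had 63.9, 41 and 49.5 in UV-treated and 11.1, 13.6 and 17.6 in mock-treated SW13+BRG1 cells, and 91.4, 76.5 and 59.6 in UV-treated and 31.6, 34.4 and 31.2 in mock-treated SW13+vector cells. PAN3-AS1 was dim in all mock arrays, with log2 UV effects of 1.87 ± 0.33 (adjusted p = 0.00218, limma) in SW13+BRG1 and 1.21 ± 0.33 (adjusted p = 0.0348) in SW13+vector cells. 

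ST7-AS1 and ENO1-AS1, opposite ST7 and the gene of a glycolytic enzyme, were called higher in SW13+BRG1 cells. ST7-AS1 had 55.4, 58.3 and 39.3 in UV-treated and 21.8, 15.4 and 16.1 in mock-treated SW13+BRG1 cells, and 47.5, 33.9 and 24.5 in UV-treated and 17.1, 14 and 17.6 in mock-treated SW13+vector cells. ENO1-AS1 had 64.5, 56.7 and 59.4 in UV-treated and 32.2, 12.2 and 31.8 in mock-treated SW13+BRG1 cells, and 81.9, 71.5 and 56.5 in UV-treated and 57.5, 34.5 and 33.5 in mock-treated SW13+vector cells. In SW13+BRG1 cells UV and mock arrays did not overlap for either gene, and in SW13+vector cells those of ENO1-AS1 did. The log2 effects in SW13+BRG1 and SW13+vector cells were 1.52 ± 0.39 and 1.07 ± 0.39 for ST7-AS1 and 1.38 ± 0.39 and 0.77 ± 0.39 for ENO1-AS1 (adjusted p in SW13+BRG1 cells 0.0198 and 0.0333, limma). Without mock array 2 or UV array 1 or 2 of SW13+BRG1 the ST7-AS1 call was lost (adjusted p 0.0668 to 0.0724), and the ENO1-AS1 call without SW13+BRG1 mock array 2 or any SW13+BRG1 UV array (adjusted p 0.0710 to 0.126).

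Some members called higher after UV in SW13+vector cells were already far higher in mock-treated SW13+BRG1 cells. LINC00973 had 168, 193 and 182 in UV-treated and 114, 137 and 129.6 in mock-treated SW13+BRG1 cells, and 23, 7.20 and 16 in UV-treated and 7.58, 1.47 and 1.21 in mock-treated SW13+vector cells, where the UV and mock arrays overlapped. SNHG24 had 56.2, 58.2 and 30.6 in UV-treated and 68, 71 and 59.2 in mock-treated SW13+BRG1 cells, and 26.2, 7.91 and 1.87 in UV-treated and 0.866, 1.34 and 0.557 in mock-treated SW13+vector cells, so its SW13+vector signals all lay near or under the array median. The log2 UV effects in SW13+vector cells were 2.54 ± 0.62 (adjusted p = 0.0221, limma) for LINC00973 and 3.08 ± 0.88 (adjusted p = 0.0433) for SNHG24. Both rest on mock signals under the array median: as log2 of the signal plus 16 they were 0.68 (adjusted p = 0.0749) and 0.63 (adjusted p = 0.231), and neither was called. The SNHG24 call was lost on leaving out any of 11 of the 12 arrays, with adjusted p up to 0.171 without SW13+vector UV array 1, and the LINC00973 call without SW13+vector mock array 2 or 3 or UV array 1 or 3 (adjusted p 0.0553 to 0.0872). LINC02762 had 161, 178 and 201 in UV-treated and 114, 107 and 122 in mock-treated SW13+BRG1 cells, and 75.5, 42.7 and 58.4 in UV-treated and 35, 12.7 and 19.6 in mock-treated SW13+vector cells (log2 effects 0.65 ± 0.34 and 1.48 ± 0.34, the second with adjusted p = 0.0157 by limma, and 0.0559 without SW13+vector mock array 2 or 0.0676 without UV array 1). The other tested probe set of LINC02762 gave log2 differences between the lines of 0.49 in mock-treated and -0.15 in UV-treated cells. Its UV effect in SW13+vector cells was 0.90, and none of these was called. The other members called higher in SW13+vector cells alone were LINC01465, DMTF1-AS1 and KANSL1-AS1, with log2 effects of 1.13, 1.05 and 1.02. Without SW13+vector mock array 2 or SW13+vector UV array 1, 11 members in place of 17 were called after UV in SW13+vector cells.

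The members called lower after UV were other genes in each line, which does not show a difference between the lines. A difference between the UV effects of the lines was called for none of them. In SW13+vector cells the UV arrays of LINC00540 and MIR570HG, called in SW13+BRG1 cells, also lay below the mock arrays. MIR99AHG, the host of miR-99a, let-7c and a copy of miR-125b, had 14.6, 15.5 and 1.54 in UV-treated and 70.9, 91.1 and 31.4 in mock-treated SW13+BRG1 cells, and 65.6, 32.3 and 41.3 in UV-treated and 133, 116 and 162 in mock-treated SW13+vector cells. The UV arrays lay below the mock arrays in both lines, but only SW13+BRG1 cells passed the test (log2 effect -3.06 ± 0.73, adjusted p = 0.0134, limma, against -1.61 ± 0.73, adjusted p = 0.204, in SW13+vector cells). Without mock array 1 or 2 of SW13+BRG1 it lost the call (adjusted p = 0.0567 and 0.0636), and another tested probe set of MIR99AHG gave -0.34. LINC00540 had 28, 17.5 and 5.11 in UV-treated and 62.6, 92.8 and 34.2 in mock-treated SW13+BRG1 cells, and 69.7, 60.2 and 47.2 in UV-treated and 104, 122 and 105 in mock-treated SW13+vector cells (log2 effect -2.10 ± 0.53 in SW13+BRG1 cells, adjusted p = 0.0184 by limma, and 0.0668 or 0.0893 without SW13+BRG1 mock array 1 or 2). MIR570HG, a host of miR-570, had 47.1, 63.1 and 50.9 in UV-treated and 145, 85.4 and 109.6 in mock-treated SW13+BRG1 cells, and 96.3, 109.5 and 107 in UV-treated and 146, 147 and 223 in mock-treated SW13+vector cells. Its log2 effect in SW13+BRG1 cells was -1.06 ± 0.25 (adjusted p = 0.0121, limma), its other probe set gave 0.46, and the fold fell under 2 without SW13+BRG1 mock array 1 (-0.86) or UV array 1 (-0.97).

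In SW13+vector cells the members called lower were NUTM2B-AS1, LINC01128 and CKMT2-AS1. NUTM2B-AS1 had 91.6, 90.4 and 131 in UV-treated and 155, 183 and 223 in mock-treated SW13+BRG1 cells, and 63.6, 64.7 and 62.1 in UV-treated and 138, 189 and 175 in mock-treated SW13+vector cells. The 3 UV arrays of SW13+vector cells were nearly equal and far below the mock arrays, with log2 effects of -1.39 ± 0.22 (adjusted p = 0.00194, limma) in SW13+vector and -0.85 ± 0.22 in SW13+BRG1 cells. LINC01128 had 127, 204 and 154 in UV-treated and 315, 369.9 and 332 in mock-treated SW13+vector cells (log2 effect -1.09 ± 0.21, adjusted p = 0.00711 by limma), where its other probe sets gave 0.05 and -0.68 and the fold fell under 2 without SW13+vector UV array 1 (-0.93). CKMT2-AS1, opposite the gene of a mitochondrial creatine kinase, had 32.9, 29.3 and 21.6 in UV-treated and 59.1, 60 and 67.7 in mock-treated SW13+vector cells (log2 effect -1.18 ± 0.28, adjusted p = 0.0177 by limma), and lost its call without SW13+vector mock array 1 or 2 or UV array 3 (adjusted p 0.0503 to 0.0608).

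Members called higher after UV were mostly divergent transcripts, antisense genes and LINC genes, the large classes, where 0.512% of all genes were called higher and 7.88% lower in SW13+BRG1 cells, and 0.559% higher and 4.99% lower in SW13+vector cells. Of 52 divergent transcripts 5 were called higher and 0 lower in SW13+BRG1 cells, and 3 higher and 0 lower in SW13+vector cells. Of 166 antisense genes 4 were called higher and 0 lower in SW13+BRG1 cells, and 4 higher and 2 lower in SW13+vector cells, and of 83 LINC genes 4 higher and 1 lower in SW13+BRG1 cells, and 6 higher and 1 lower in SW13+vector cells. The 8 microRNA hosts had 0 higher and 2 lower in SW13+BRG1 cells and no call in SW13+vector cells, and of the 6 SNHG genes SNHG24 alone was called, higher in SW13+vector cells. Differences between the classes were not tested.

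The genomic span of a gene, which the naming rule did not use, moved with its UV effect. Members with coordinates (316) had a median span of 7669 bp, against 31317 bp over 10160 protein-coding genes at the threshold, and Spearman's rho between span and log2 UV effect was -0.29 in SW13+BRG1 and -0.28 in SW13+vector cells across members, against -0.38 in SW13+BRG1 and -0.42 in SW13+vector cells across protein-coding genes. These values describe genes measured on the same arrays, which are not independent replicates. All 13 members called higher in SW13+BRG1 cells spanned 679 to 9458 bp (median 2084), and the 12 called higher in SW13+vector cells that have coordinates spanned 1000 to 91786 bp (median 2301.5, LINC00973 and SNHG24 having none). Members called lower spanned 23378 to 561240 bp in SW13+BRG1 cells, where MIR99AHG was the longest, and 31856 to 135095 bp in SW13+vector cells.

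Medians of members and protein-coding genes were close under 10 kb and apart at longer spans. Under 10 kb the median log2 UV effect was 0.34 over 177 members and 0.32 over 1959 protein-coding genes in SW13+BRG1 cells, and 0.28 over the members and 0.28 over the coding genes in SW13+vector cells. From 10 to 50 kb it was 0.18 over 95 members and 0.06 over 4583 coding genes in SW13+BRG1 cells, and 0.12 over the members and 0.06 over the coding genes in SW13+vector cells. Over 50 kb it was -0.03 over 44 members and -0.23 over 3618 coding genes in SW13+BRG1 cells, and 0.13 over the members and -0.28 over the coding genes in SW13+vector cells. Under 10 kb 13 members were called higher and 0 lower in SW13+BRG1 cells, against 21 coding genes higher and 55 lower (7.34% and 0% of the members, 1.07% and 2.81% of the coding genes), and 11 members higher and 0 lower in SW13+vector cells, against 22 coding genes higher and 23 lower (6.21% and 0%, against 1.12% and 1.17%). The difference between members and coding genes was not tested.

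**Figure D3:**
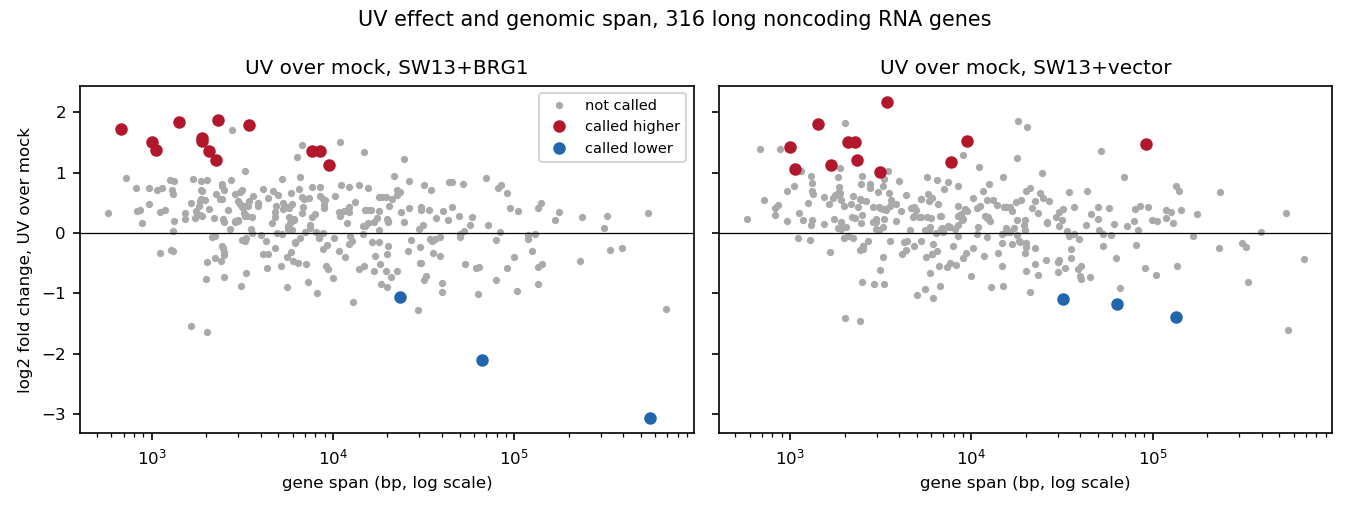
Log2 UV effect (UV over mock) against genomic span in bp (log axis) of 316 long noncoding RNA genes, in SW13+BRG1 and SW13+vector cells, with called members marked. In SW13+BRG1 cells the called rises lie at 679 to 9458 bp and the 3 called falls at 23378 bp or more, and in SW13+vector cells the called rises reach 91786 bp, past the shortest called fall at 31856 bp.

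Neighbouring genes were set beside the members after UV. Antisense, overlapping and divergent members are named after a neighbouring gene, and for 221 members this partner name could be read, with 186 partners tested. Of these partners 1 was called higher and 20 were called lower in each line. None of the 8 tested partners of members called higher in SW13+BRG1 cells, nor of the 7 in SW13+vector cells, was called, counts too small to be read against that share. PAN3 had 221 ± 15.8 in UV-treated and 366 ± 16.5 in mock-treated SW13+BRG1 cells and 178 ± 18.9 in UV-treated and 308 ± 14.1 in mock-treated SW13+vector cells (SD, n = 3 each, log2 effects -0.73 and -0.80), while PAN3-AS1 was called higher in both lines. PAXIP1 had 159.9 ± 4.11 in UV-treated and 322 ± 71.3 in mock-treated SW13+BRG1 cells and 394 ± 17.1 in UV-treated and 651 ± 87.4 in mock-treated SW13+vector cells (log2 effects -0.99 and -0.72). HNRNPD had 2290.0 ± 156 in UV-treated and 2008 ± 39.9 in mock-treated SW13+BRG1 cells (log2 effect 0.19), and TOLLIP had 189 ± 21.8 in UV-treated and 146 ± 26.1 in mock-treated SW13+BRG1 cells (log2 effect 0.37). Over the 186 pairs the log2 UV effects of member and partner had Pearson correlations of -0.05 in SW13+BRG1 and -0.02 in SW13+vector cells, given as a description. The strand and position of the probes relative to member and partner were not checked, since no genome was used here.

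**Figure D4:**
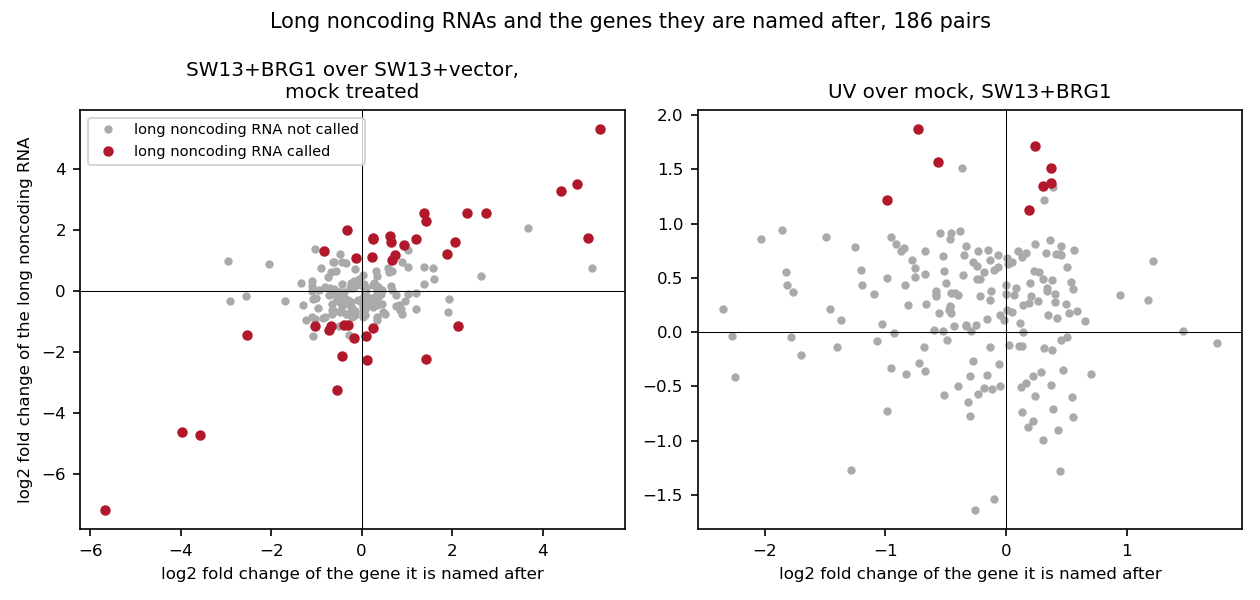
Log2 fold change of 186 antisense, divergent and overlapping members (vertical axis) against that of the gene each is named after (horizontal axis), for SW13+BRG1 over SW13+vector in mock-treated cells and for UV over mock in SW13+BRG1 cells, with called members in red. Between mock-treated lines the points follow each other (Pearson r 0.615), and for the UV effect in SW13+BRG1 cells they do not (r -0.05).

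Between the lines members were called in both directions. In mock-treated cells 35 members were called higher and 35 lower in the SW13+BRG1 line, set against SW13+vector, where 11% of all genes at the threshold were called higher and 6.05% lower. In UV-treated cells 36 were called higher and 34 lower, with 11.7% and 7.99% of all genes. The split depended on the scaling. Scaled to hybridization controls it was 28 higher and 49 lower in UV-treated cells (9.99% and 10.8% of all genes) and 33 and 36 in mock-treated cells (10.7% and 6.16%). After quantile normalization it was 31 higher and 41 lower in mock-treated cells (10.5% and 6.87% of all genes) and 36 and 40 in UV-treated cells (11.5% and 8.04%). A total of 51 members were called in the same direction in both treatments, 28 higher (80% of the 35 and 77.8% of the 36) and 23 lower (65.7% of the 35 and 67.6% of the 34). These comparisons are of different arrays of the same lines. The shared calls, and the levels and sizes given next, were not counted over all genes, so they have no share to be read against. Among the members called in mock-treated cells, 11 of the 35 higher and 11 of the 35 lower reached 50 in both groups. Log2 differences exceeded 3 in size for 8 members higher and 10 lower in mock-treated cells. Beside this, summed signals of 4 fibroblast markers were 56.8 to 95.7 in SW13+BRG1 and 153.9 to 348.1 in SW13+vector cells, and of 5 blood cell markers 47.2 to 107.5 in SW13+BRG1 and 143.3 to 220.3 in SW13+vector cells. Most of each gap came from 1 gene: LUM averaged 26.6 and 22.1 in UV- and mock-treated SW13+BRG1 cells, against 226.1 and 192.8 in UV- and mock-treated SW13+vector cells, and PTPRC 6.77 and 7.07, against 118.2 and 122.9. These were the only called genes of the 2 lists, of which 2 each were tested. Of the other fibroblast markers DCN, PDGFRA and COL1A2 lay at 6.90 to 33.2 in every group, and of the other blood cell markers CD3E, CD14 and LYZ at 2.15 to 25.8 and HBB at 34.8 to 56.5. Their part in the result was not tested.

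**Figure D5:**
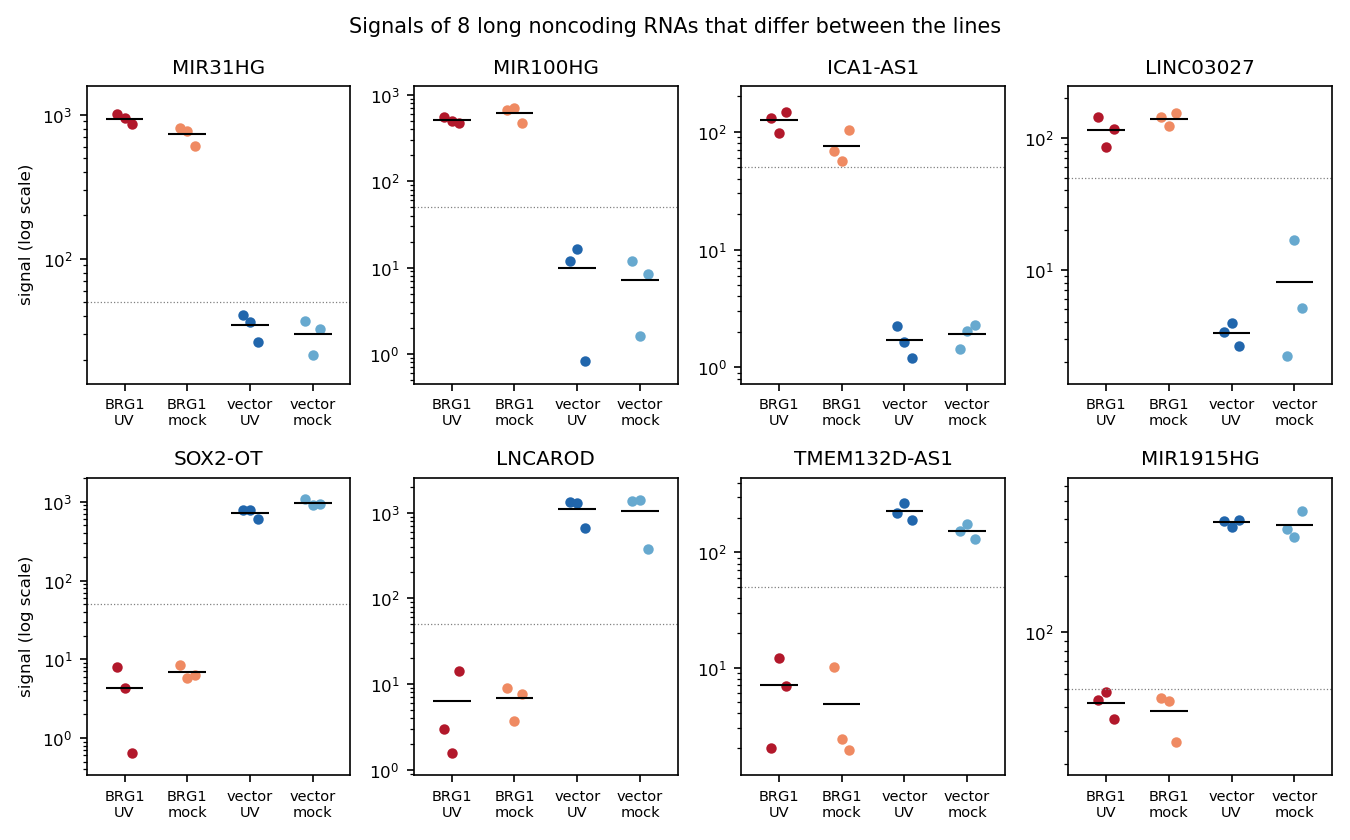
Signal on each array (log scale) of members chosen from those called between the lines, not ranked by size, for UV- and mock-treated SW13+BRG1 cells and UV- and mock-treated SW13+vector cells, with black bars at the group means and a dotted line at the threshold of 50. SOX2-OT and LNCAROD are near 1000 in mock-treated SW13+vector cells and under 10 in mock-treated SW13+BRG1 cells, and MIR31HG and MIR100HG are bright in SW13+BRG1 cells only.

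Among microRNA hosts, MIR31HG and MIR100HG were higher in SW13+BRG1 cells with both treatments, and MIR1915HG and MIR924HG were lower. MIR31HG, whose transcript covers the hairpin of miR-31 printed above, had 806, 778 and 611 in mock-treated SW13+BRG1 cells, against 36.9, 21.5 and 32.5 in mock-treated SW13+vector cells. In UV-treated cells MIR31HG had 1006, 946 and 861 in SW13+BRG1, against 40.9, 36.3 and 26.4 in SW13+vector cells. No array of one line came near the other, and the log2 difference was 4.62 ± 0.23 in mock-treated (adjusted p = 1.77e-08, limma) and 4.78 ± 0.23 in UV-treated cells (adjusted p = 1.2e-08). MIR100HG, the host of miR-100, let-7a and miR-125b, had 679.7, 699.7 and 475 in mock-treated SW13+BRG1 cells, against 11.8, 1.62 and 8.33 in mock-treated SW13+vector cells. In UV-treated cells MIR100HG had 555, 507 and 472 in SW13+BRG1, against 11.9, 16.6 and 0.823 in SW13+vector cells. Its log2 difference of 6.81 ± 0.94 in mock-treated cells (adjusted p = 0.000161, limma) rests on SW13+vector signals under the array median, and was 4.77 as log2 of the signal plus 16.

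MIR1915HG had 44.9, 43.4 and 26.1 in mock-treated SW13+BRG1 cells, against 354, 321 and 443 in mock-treated SW13+vector cells. UV did not alter this order, with 43.5, 48.5 and 34.5 in UV-treated SW13+BRG1 and 390.3, 363 and 397 in UV-treated SW13+vector cells. The log2 difference was -3.32 ± 0.24 in mock-treated (adjusted p = 4.76e-07, limma) and -3.20 ± 0.24 in UV-treated cells (adjusted p = 6.38e-07). MIR924HG, which lies outside the rule for named genes and was chosen after its values were seen, had 40, 40.4 and 53.7 in mock-treated SW13+BRG1 cells, against 115, 109.6 and 62.5 in mock-treated SW13+vector cells. After UV it had 41.6, 56.1 and 73.5 in SW13+BRG1, against 95.9, 118 and 137 in SW13+vector cells. The arrays of the lines did not overlap with either treatment, with log2 differences near the fold needed for a call (-1.06 ± 0.30, adjusted p = 0.0239, and -1.06 ± 0.30, adjusted p = 0.022, limma). The paired hosts MIR100HG and MIR99AHG, which share the seeds above, differed in opposite directions after UV: MIR100HG was higher in UV-treated SW13+BRG1 cells (log2 difference 6.54 ± 0.94) and MIR99AHG was lower there (log2 difference -2.66 ± 0.73, adjusted p = 0.0176, limma). In mock-treated cells MIR99AHG was not called between the lines (-1.21 ± 0.73).

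The overlapping transcript SOX2-OT, which shares its locus with the pluripotency and neural transcription factor gene SOX2, had 8.51, 5.72 and 6.33 in mock-treated SW13+BRG1 cells, against 1079.8, 905 and 944 in mock-treated SW13+vector cells. In UV-treated cells SOX2-OT had 8.05, 4.28 and 0.638 in SW13+BRG1, against 795, 782 and 604 in SW13+vector cells. Every SW13+BRG1 array was under the array median, and the log2 difference was -7.17 ± 0.66 in mock-treated (adjusted p = 4.38e-06, limma) and -8.01 ± 0.66 in UV-treated cells (adjusted p = 1.6e-06), or -5.44 and -5.20 as log2 of the signal plus 16. SOX2 itself averaged 84.3 ± 12.6 in mock-treated SW13+BRG1 and 4256 ± 309 in mock-treated SW13+vector cells (log2 difference -5.67).

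LNCAROD, known as an activating regulator of the Wnt inhibitor gene DKK1, had 9.08, 3.66 and 7.60 in mock-treated SW13+BRG1 cells, against 1378, 1407 and 372 in mock-treated SW13+vector cells. In UV-treated cells LNCAROD had 2.98, 1.58 and 14.2 in SW13+BRG1, against 1336, 1296 and 654 in SW13+vector cells. The third SW13+vector array was the lowest with either treatment, as for MALAT1, and still lay far above all SW13+BRG1 arrays. The log2 difference was -7.15 ± 0.72 in mock-treated (adjusted p = 1.07e-05, limma) and -8.00 ± 0.72 in UV-treated cells (adjusted p = 3.76e-06). Since the SW13+BRG1 signals lay under the array median, these sizes depend on the floor, and were -5.34 and -5.62 as log2 of the signal plus 16.

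Antisense and divergent members often differed between the lines together with the gene they are named after. In mock-treated cells 22 pairs had a member called higher, and in 10 of them the partner was called higher too and in 0 lower, while of 17 pairs with a member called lower 5 partners were called lower and 2 higher (those of ARRDC3-AS1 and ASMTL-AS1). Among all 186 tested partners 20 were called higher and 18 lower. ICA1-AS1, opposite an islet cell autoantigen gene, had 68.9, 56.1 and 103 in mock-treated SW13+BRG1 cells, against 1.44, 2.03 and 2.31 in mock-treated SW13+vector cells, and ICA1 had 176 ± 15 in mock-treated SW13+BRG1 and 4.72 ± 1.41 in mock-treated SW13+vector cells (log2 differences 5.29 and 5.27 against SW13+vector signals far under the array median, and 2.33 for ICA1-AS1 as log2 of the signal plus 16). ITGB8-AS1, opposite an integrin subunit gene, had 34.1, 43.1 and 34.2 in mock-treated SW13+BRG1 cells, against 5.40, 3.22 and 3.20 in mock-treated SW13+vector cells, and ITGB8 had 463 ± 237 in mock-treated SW13+BRG1 and 21.6 ± 13.4 in mock-treated SW13+vector cells (log2 differences 3.27 and 4.41). Both genes of each pair were higher in SW13+BRG1 cells, and near or under the array median in SW13+vector cells. S1PR1-DT, beside the gene of a sphingosine-1-phosphate receptor, went the other way, with 9.56, 15.9 and 10.2 in mock-treated SW13+BRG1 cells, against 367, 322 and 236 in mock-treated SW13+vector cells, and S1PR1 had 73.5 ± 11.9 in mock-treated SW13+BRG1 and 889.5 ± 224 in mock-treated SW13+vector cells (log2 differences -4.71 and -3.58). HHIP-AS1 and TFAP2A-AS1, opposite genes of a hedgehog inhibitor and of the transcription factor AP-2 alpha, were higher together with HHIP and TFAP2A (3.49 and 2.54 for the antisense genes), and LRRTM4-AS1, opposite a synaptic adhesion gene, was lower together with LRRTM4 (-4.63). As log2 of the signal plus 16 the mock differences were 1.41 for ITGB8-AS1, -3.53 for S1PR1-DT, 1.90 for HHIP-AS1 and -1.56 for LRRTM4-AS1, all still called.

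Intergenic and further antisense members separated the lines as well. LINC03027 had 144, 123 and 154 in mock-treated SW13+BRG1 cells, against 2.21, 16.9 and 5.10 in mock-treated SW13+vector cells (log2 difference 4.60 ± 0.61, adjusted p = 0.000123 by limma). Its other tested probe set gave 1.66 in mock-treated and 2.02 in UV-treated cells and was called in neither. LINC01029 had 3.15, 11.5 and 5.03 in mock-treated SW13+BRG1 cells, against 163, 137 and 179 in mock-treated SW13+vector cells (-4.81 ± 0.50, adjusted p = 1.53e-05). TMEM132D-AS1 had 10, 2.41 and 1.94 in mock-treated SW13+BRG1 cells, against 155, 178 and 131 in mock-treated SW13+vector cells (-5.41 ± 0.68, adjusted p = 7.34e-05). In each of these the arrays of the lines did not overlap, and the dimmer line lay under the array median, so that as log2 of the signal plus 16 the differences were 2.74 for LINC03027, -2.97 for LINC01029 and -3.05 for TMEM132D-AS1. SERTAD4-AS1 had log2 differences of 2.28 ± 0.58 in mock-treated and 4.52 ± 0.58 in UV-treated cells, LINC01315 -3.31 ± 0.85 and -3.47 ± 0.85, and LINC00052 -4.36 ± 0.95 and -3.48 ± 0.95, the last losing its UV call without SW13+vector UV array 1 or 2 (adjusted p = 0.0648 and 0.0702, limma).

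Where a called member had several tested probe sets, these did not always share the call. Between the lines 15 of 26 such members in mock-treated cells and 12 of 23 in UV-treated cells were called with every probe set, and 9 in each treatment with 1 probe set alone. After UV all 4 in SW13+BRG1 and all 6 in SW13+vector cells were called with 1 probe set alone, and no member was called in opposite directions by its probe sets. Of 320 members 22 were measured by probe sets that may cross-hybridize with other sequences and 40 by probe sets shared within gene families or transcripts, going by the suffix of their names.

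Other lncRNAs, known mostly by their own names, were called in few cases. PCBP1-AS1, on the same list, is also a member, at a mean of 79.3 in UV-treated SW13+vector cells, and was called in no comparison. Of 25 tested on a list of 30, 0 were called higher and 2 lower after UV in SW13+BRG1 cells, and 0 higher and 1 lower in SW13+vector cells, with 7.88% of all genes called lower in SW13+BRG1 and 4.99% in SW13+vector cells. Between the lines 1 was called higher and 1 lower in mock-treated cells (11% and 6.05% of all genes), and 1 higher and 2 lower in UV-treated cells (11.7% and 7.99%). TP53TG1, a p53-inducible transcript, was called higher in the SW13+BRG1 line with both treatments, at 207.2 ± 41.0 in mock-treated SW13+BRG1 and 83.6 ± 5.54 in mock-treated SW13+vector cells (SD, n = 3 each, log2 difference 1.29). DLEU2, the host of miR-15a and miR-16-1, was called lower with both treatments, at 67.5 ± 4.54 in mock-treated SW13+BRG1 and 224.3 ± 19.7 in mock-treated SW13+vector cells (-1.73). FTX, a transcript of the X inactivation centre, was called lower after UV in both lines, with log2 effects of -1.34 in SW13+BRG1 and -1.17 in SW13+vector cells. RPPH1, the RNA of ribonuclease P, was called lower after UV in SW13+BRG1 cells at signals of 3.63 ± 1.05 and 25.7 ± 7.64 in UV- and mock-treated cells, and was also called lower in that line than in the vector line after UV. Of lncRNA-related protein lists, 2 of 19 nuclear exosome genes and 2 of 11 microRNA biogenesis genes fell by the call after UV in SW13+BRG1 cells, and 1 and 0 in SW13+vector cells, where 7.88% of all genes in SW13+BRG1 and 4.99% in SW13+vector cells were called lower, and none of 13 paraspeckle genes or 7 genes of nonsense-mediated decay did. The difference between the UV effects of the lines was called for none of these genes. None of these list members was called higher after UV, where 0.512% of all genes in SW13+BRG1 and 0.559% in SW13+vector cells were. Between the lines, the exosome genes EXOSC2 and EXOSC9 were called lower in SW13+BRG1 cells with each treatment, where 6.05% of all genes in mock-treated and 7.99% in UV-treated cells were called lower. Of the paraspeckle list SMARCA4, whose probe sets disagreed, was called lower in mock-treated and HNRNPH3 in UV-treated cells, and the microRNA biogenesis genes XPO5 and DICER1 were called lower in UV-treated cells. No gene of these protein lists was called higher between the lines, where 11% of all genes in mock-treated and 11.7% in UV-treated cells were.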

How the data were processed

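Signal was measured on 12 Affymetrix U133 Plus 2.0 arrays, 3 for each of 4 groups. The authors obtained 1 linear signal intensity per probe set with MAS, set to an average of 125 per array, and deposited that intensity. They compared groups with a Welch test at a p of 0.05 and a fold of 2. Here the signals were floored at 0.1, taken to log2 and fitted with limma 3.58.1 (R 4.3.3), with 1 mean per group, a variance prior that follows the mean, and all 12 arrays in 1 fit. Probe sets at or above the array median on at least 3 arrays were tested (32622, without 62 control probe sets), and p was adjusted by the Benjamini-Hochberg method over them. A call needed an adjusted p under 0.05 and a fold over 2, and for the difference of UV effects the adjusted p alone. The script was tested on simulated data.

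Probe sets were named through the platform annotation (41097 with 1 gene, 1801 with several, 11777 with none listed). Spans, start regions and microRNAs come from RefSeq (GRCh38.p14), and 4 members had no coordinates. The rule for named members took, in each comparison, up to 8 called members with the largest change in each direction. It also took the 2 brightest of each class, MALAT1, LNCAROD and genes next to the threshold. Of the brightest, C2orf74-DT and LINC00623 are not described here. LINC00513, LINC01089, LINC01465, DMTF1-AS1, KANSL1-AS1, MIR924HG, ARRDC3-AS1 and ASMTL-AS1 lie outside this rule and are named as well. The members and gene lists were chosen with earlier results of these data known. Alternatives were other filters, scalings, floors and tests, other probe sets, the replicate number as a block, and leaving out each array. The number of arrays limits the precision.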

Additional observations from a re-analysis of the deposited data

How the results depend on the processing

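Counts of called members moved by over 1.5 times from the main values (70 between mock-treated lines, 70 between UV-treated lines, 16 after UV in SW13+BRG1 and 17 after UV in SW13+vector cells) under these settings. With a filter at the 75th percentile, which tested 157 members, they were 46, 44 and 8 for the first 3 comparisons. With the Welch test after Benjamini-Hochberg adjustment they were 14, 16, 0 and 0, whereas with its unadjusted p the counts of 59, 58, 13 and 18 moved by less. Quantile normalization gave 26 in SW13+BRG1 cells after UV, a membership threshold of 100 gave 10, and the adjusted p alone gave 44, and 31 in SW13+vector cells. The cause was not tested, except that the stricter filter and threshold leave fewer members. Leaving out 1 array gave 58 to 73 and 58 to 71 between the lines, 11 to 20 after UV in SW13+BRG1 and 11 to 18 in SW13+vector cells, and 0 to 0 for the difference of UV effects. With the arrays numbered 3 left out, a choice made after seeing the data, the counts were 82, 71, 23, 22 and 0.

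With the replicate number as a block the counts were 76, 79, 18 and 23, and 0 for the difference, and no call of a named member was lost. The sample titles number the arrays as experiments 1 to 3 in every group. Deviations of arrays with the same number correlated at 0.0152 to 0.293 over 18 pairs, and all 12 arrays correlated better on average with their own number than with the others pooled. The highest values were those between arrays numbered 3 (0.179 to 0.293), while arrays numbered 1 and 2 correlated with each other at up to 0.137. Not every same-number pair exceeded 0.1, and the main fit did not take the numbers as pairing.

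Of 54 values of named members, 1 turned its direction under a change of processing, LINC00662 in SW13+vector cells after UV, at -0.17 (adjusted p = 0.829, limma) as the mean over its probe sets. Single other probe sets turned it for LINC00662 (-0.71, -0.19 and -0.34 in SW13+BRG1 cells, and -1.39, -0.0837, -1.20 and -0.38 in SW13+vector cells), for LINC01128 in SW13+vector cells (0.0452) and for MIR570HG in SW13+BRG1 cells (0.46). Over 846 recomputed values under changes of processing 751 stayed on their side of the threshold and 94 lost the call, 45 of them under the adjusted Welch test. Leaving out 1 array turned none, and 14 lost a call for at least 1 array. Signals near the array median are dim, and log2 differences of members under it in 1 line depend on the floor.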
